A study of Mus musculus with 2 samples.

Results

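The genes of the hypoxia-inducible factor (HIF) pathway and of glycolysis were examined in HT22 cells after a 1 hour exposure to J147. They were 42 genes named as a list, and every probe set of the array annotated to one of them alone was taken, which gave 82 probe sets of 38 genes out of 45101 probe sets in all. The list holds 5 HIF regulators, 4 transporters of glucose and lactate, 20 enzymes of glycolysis and of the fate of pyruvate, 3 PFKFB isozymes and 10 HIF targets. HT22 is an immortalised line derived from mouse hippocampal nerve cells, and J147 is a neurotrophic compound under study for Alzheimer's disease. Both cultures were plated in DMEM with 10% fetal calf serum and kept overnight before treatment. One group was treated with J147 for 1 hour, and the control group, which the labels call untreated, received the DMSO vehicle for 1 hour. The J147 concentration is 10 mM in the sample labels and 10 μM in the methods. There was 1 Affymetrix Mouse Genome 430 2.0 array per group, so differences are given without replicates and without p-values, and the effect of J147 and that of any unrelated variation between the 2 samples cannot be told apart.

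HIF-1 is a transcription factor made of an oxygen-regulated alpha subunit and the constant partner ARNT. In the presence of oxygen, prolyl hydroxylases of the EGLN family mark the alpha subunit, the VHL protein binds the mark, and the subunit is degraded. When oxygen is low, or when growth signals raise synthesis of the subunit, HIF-1 binds a short DNA element and raises transcription of glucose transporters, glycolytic enzymes and genes that limit pyruvate use by mitochondria. The alpha subunit is controlled mainly as a protein, so the level of its mRNA does not report its activity. Nerve cells depend on glucose as a fuel, and in neurons the level of the PFKFB3 protein is held down by its degradation.

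The core of this DNA element, the hypoxia response element, is commonly written as ACGTG or GCGTG, and only ACGTG was counted here. The promoters of 4 members are shown because their values lay on different sides. Each sequence is the 250 bases before the RefSeq transcription start on GRCm38.p6, written 5′ to 3′ on the strand of the gene, with each match to ACGTG or its reverse complement CACGT in capitals. The run CACGTG, an E-box, holds a match on either strand and was counted as 2 matches. Hk2 (higher with J147, chr6:82774455-82774704, minus strand), Ankrd37 (lower, chr8:45999851-46000100, minus strand), Ldha (nearly equal on both arrays, chr7:46845554-46845803, plus strand, the first of its 2 windows) and Pdk1 (lower, chr2:71872974-71873223, plus strand, the first of its 2 windows) read as follows.
Hk2: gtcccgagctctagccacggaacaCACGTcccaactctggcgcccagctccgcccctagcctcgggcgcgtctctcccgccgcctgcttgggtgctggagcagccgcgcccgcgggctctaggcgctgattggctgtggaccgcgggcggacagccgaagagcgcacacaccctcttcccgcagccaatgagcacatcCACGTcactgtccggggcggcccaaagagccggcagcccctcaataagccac
Ankrd37: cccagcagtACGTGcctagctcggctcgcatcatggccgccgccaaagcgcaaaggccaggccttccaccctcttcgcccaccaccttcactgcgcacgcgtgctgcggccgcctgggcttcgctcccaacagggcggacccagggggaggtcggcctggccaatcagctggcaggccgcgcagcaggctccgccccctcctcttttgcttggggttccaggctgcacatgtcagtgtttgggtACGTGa
Ldha: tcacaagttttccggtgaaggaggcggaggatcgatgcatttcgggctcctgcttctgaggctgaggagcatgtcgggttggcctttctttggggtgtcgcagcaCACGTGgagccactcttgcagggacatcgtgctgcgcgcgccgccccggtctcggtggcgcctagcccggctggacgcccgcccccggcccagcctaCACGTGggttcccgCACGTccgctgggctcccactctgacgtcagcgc
Pdk1: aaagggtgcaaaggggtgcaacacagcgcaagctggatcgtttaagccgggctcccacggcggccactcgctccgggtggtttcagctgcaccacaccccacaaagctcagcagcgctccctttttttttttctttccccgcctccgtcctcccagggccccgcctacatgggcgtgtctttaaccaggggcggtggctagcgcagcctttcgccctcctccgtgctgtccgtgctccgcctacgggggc
The Hk2 window held 2 matches, the Ankrd37 window 2, the Ldha window 5 and the Pdk1 window 0. The Pdk1 window holds the run GCGTG, which was not counted, so 0 matches does not mean that the core is absent. Of the 38 members with a window in the promoter table, 23 (60.5%) had a match in at least 1 window, beside 19.96% of 17492 protein-coding genes and 18.5% of all 27025 genes in the table. Counted by windows, 27 of 57 member windows (47.4%) held one, beside 16.6% of all 32851. Bnip3l, Epas1, Ndrg1 and Slc2a3 were not in the table. A match is a run of letters and not a bound site, and the members were listed as HIF genes to begin with.

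Values are scaled intensities, in which each array has a median of 100, and the lowest value that the summary can give was 95.4 after vehicle and 95.1 after J147. A probe set was scored when its mean over both arrays was above 100. Leaving out the control probe sets, 46.3% of the 45037 others were at this floor after vehicle and 45.99% after J147, where a level has no order. Over the 22545 scored probe sets the SD of the log2 difference, J147 minus vehicle, was 0.18, and 18.9% had identical deposited values on both arrays, which the scaling turns into a difference of -0.0046. The control probe sets for 18S rRNA had a median difference of -0.63 on the log2 scale, lower with J147, and their part in the results below was not tested. Of 8 neuron markers, 7 were at the lowest value on both arrays, with Tubb3 the exception, whereas all 7 fibroblast markers were above it. Of 7 astrocyte markers, Gja1 and Slc1a3 were above it and 5 at it, as were all 5 endothelial markers. The array measures mRNA pooled over the culture, so fewer cells with a transcript and less transcript per cell cannot be told apart.

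Of the 42 members, 31 had a scored probe set and 7 had probe sets of which none was scored. Gapdh and Bnip3l have probe sets, other than controls, that are each annotated to a pseudogene as well, and Gpi1 and Eno1 were not analysed here. Among the 60 scored probe sets of the 31 genes, 3 (5.0%) were at least 1.2-fold higher with J147, beside 5.04% of all scored probe sets. In the other direction 5 (8.33%) passed 1.2-fold, beside 6.09%, and this count was 3 after quantile normalization and 2 after subtraction of a lowess curve. At 1.5-fold, 1 was higher (1.67%, beside 0.856% of all) and none was lower (beside 0.781%). At 2-fold none was higher and none was lower, beside 0.0754% and 0.071% of all. The shares past 1.2-fold were near those of the whole array, and the share past 1.5-fold rests on a single probe set, of Pfkfb3. The shares of the whole array are not matched for level. Among scored probe sets above 10000, where many member probe sets lie, 2.14% were at least 1.2-fold higher and 2.35% lower. Between 200 and 1000, 8.34% were higher and 9.79% lower. By the brightest probe set of each gene, the median log2 difference was -0.025 over the 31 members and -0.0046 over 10611 scored genes, and 16 members (51.6%) lay below 0, beside 48.3% of all. The plot of every scored probe set shows that most members lay between the lines at 1.2-fold.

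**Figure D1:**
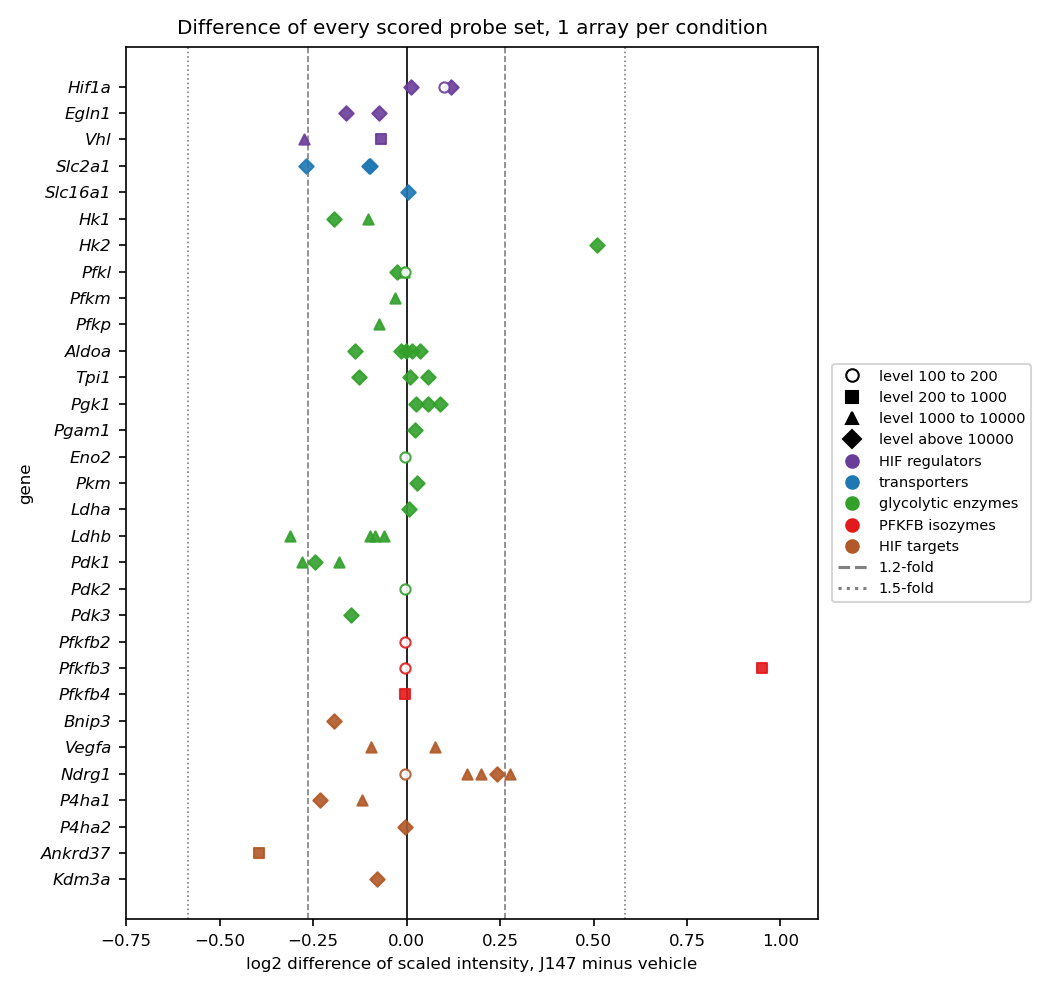
Log2 difference of scaled intensity, J147 minus vehicle (horizontal axis), for each of the 60 scored probe sets of the 31 scored genes (vertical axis, 1 array per condition). Colours mark the group of the gene and symbols the mean scaled intensity of the probe set. Pfkfb3 has 1 probe set far to the right and 1 at 0, Hk2 lies beyond the line at 1.2-fold, and the 4 brighter Ndrg1 probe sets all lie above 0.

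The HIF regulators showed no member past 1.5-fold. Hif1a, the oxygen-regulated alpha subunit, read 92876 for vehicle and 93615 for J147 on its brightest probe set, 1427418_a_at, a log2 difference of 0.01. Its other scored probe sets had differences of 0.12 (1416035_at, 12862 against 13957) and 0.10 (1448183_a_at, 125 against 134), and the fourth was at the lowest value. All 3 were higher with J147, by less than 1.2-fold, and 1448183_a_at was close to the lowest value. Egln1, the main oxygen-sensing hydroxylase, read 15524 for vehicle and 14763 for J147 on 1423785_at, a log2 difference of -0.07. Its other probe set, 1451110_at, read 14168 and 12661, a difference of -0.16. Both were lower with J147. Vhl, which recognises hydroxylated HIF alpha, read 2816 for vehicle and 2326 for J147 on 1434708_at, a log2 difference of -0.28 or 1.21-fold lower. The second, 1421071_at, read 487 and 465, a difference of -0.07. Vhl was under 1.2-fold after quantile normalization (-0.26), after subtraction of a lowess curve (-0.25) and by the mean of its probe sets (-0.17). Of the 8130 scored probe sets with a mean between 1000 and 10000, 13.8% lay at least as far from 0 as the first Vhl probe set. Epas1, the alpha subunit of HIF-2, and Egln3, a hydroxylase that is itself induced by HIF, were at the lowest value on both arrays in each of their 2 probe sets.

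Of the transporters, the lactate and pyruvate carrier Slc16a1 (MCT1) was nearly the same on both arrays, with 99753 for vehicle and 100034 for J147, a log2 difference of 0.0041. Slc2a1 (GLUT1), the basal glucose transporter and a known HIF target, had 3 scored probe sets, all lower with J147. Probe set 1434773_a_at read 120587 and 112623, a log2 difference of -0.10. Probe set 1426599_a_at read 74672 and 69624, also -0.10. Probe set 1426600_at read 17568 and 14581, a difference of -0.27 or 1.205-fold lower. The brightest probe sets of Slc2a1 therefore differed by less than the SD of 0.13 among the 6721 scored probe sets above 10000, and the dimmest by more. Slc2a3 (GLUT3), the high-affinity transporter typical of neurons, stood at the lowest value in all 4 of its probe sets on each array, and Slc16a3 (MCT4), which exports lactate, in its only one. That value does not show that the mRNA was absent, since the only probe set of the ribosomal protein gene Rps16 was at it too.

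Hexokinase, which traps glucose in the cell as glucose 6-phosphate, had the largest difference among the glycolysis steps read here, through Hk2 alone. Gpi1 and Eno1 were not compared. Hk2, the inducible isozyme, read 17498 for vehicle and 24914 for J147 on its single probe set, 1422612_at. It was 1.42-fold higher with J147, a log2 difference of 0.51. Of the 6721 scored probe sets with a mean above 10000, 37 (0.551%) lay at least as far from 0. Hk1, the constitutive isozyme, was on the other side, with 21024 for vehicle and 18370 for J147 on 1437974_a_at, a log2 difference of -0.19. Its second probe set, 1420901_a_at, read 2175 and 2027, a difference of -0.10. The hexokinases thus lay on opposite sides of 0, and a difference between the isozymes has no test with 1 array per condition. When a probe set annotated to both Hk1 and the ribosomal protein gene Rpl17 was allowed, the difference of Hk1 was -0.06.

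The enzymes from phosphofructokinase to pyruvate kinase were close to equal on both arrays. The phosphofructokinases, which commit sugar to glycolysis, read 14004 and 13763 for Pfkl (liver type), 8241 and 8069 for Pfkm (muscle type) and 6737 and 6400 for Pfkp (platelet type), in the order vehicle and J147. Their log2 differences were -0.02, -0.03 and -0.07, all slightly below 0. For the aldolase Aldoa, the 5 probe sets lay between -0.14 and 0.03, and the brightest read 225158 and 230682. Aldoc, the brain aldolase, was at the lowest value in both of its probe sets. Tpi1, which interconverts the triose phosphates, had probe sets on both sides of 0, from -0.13 (247492 and 226768) to 0.06 (229327 and 238439). Pgk1, which makes the first ATP of the pathway, had 3 probe sets, all higher with J147, at 0.03, 0.06 and 0.09, and the brightest read 268898 and 273757. Pgam1, a phosphoglycerate mutase, read 364424 and 369916, a log2 difference of 0.02. Pkm, the pyruvate kinase of most tissues, read 151742 and 154629, a difference of 0.03. The neuronal enolase Eno2 had identical deposited values, at a scaled intensity of 145 on both arrays. For Gapdh, the dehydrogenase between aldolase and Pgk1, only the array's 3 control probe sets carry that gene alone. They read 458687 and 477031 at the 5′ end, 353947 and 360702 in the middle and 363811 and 364188 at the 3′ end, with log2 differences of 0.06, 0.03 and 0.0015. None of these differences reached 1.2-fold.

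Of the enzymes that decide the fate of pyruvate, Pdk1, Pdk3 and Ldhb were lower with J147 and Ldha was nearly equal. Ldha, the lactate dehydrogenase subunit that favours lactate formation, read 330484 for vehicle and 331648 for J147, a log2 difference of 0.0051. Ldhb, the subunit that favours pyruvate, had 4 scored probe sets, all lower with J147. Probe set 1448237_x_at read 3937 and 3173, a difference of -0.31. The other probe sets had log2 differences of -0.06, -0.10 and -0.08, with 4589 and 4401 on the brightest. Of the scored probe sets between 1000 and 10000, 61.9% lay at least as far from 0 as the brightest, and 10.7% as far as 1448237_x_at. Pdk1, a kinase that shuts off pyruvate dehydrogenase and a well-known HIF-1 target, was lower with J147 on all 3 scored probe sets. Probe set 1423747_a_at read 33984 and 28658, a log2 difference of -0.25 or 1.19-fold lower. Probe set 1423748_at read 10196 and 8999, a difference of -0.18, and 1435836_at read 4831 and 3981, a difference of -0.28 or 1.21-fold lower. Of the scored probe sets above 10000, 5.51% lay at least as far from 0 as the first. Pdk3, another of these kinases, read 10734 and 9690, a difference of -0.15, and 18.1% of the scored probe sets above 10000 lay at least as far from 0. Pdk2 had identical values close to the lowest value, at 118. Over the 16 scored genes of glycolysis and pyruvate use, the median log2 difference was -0.015, from -0.25 for Pdk1 to 0.51 for Hk2, with 6 above 0, 8 below 0 and 2 with identical values.

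**Figure D2:**
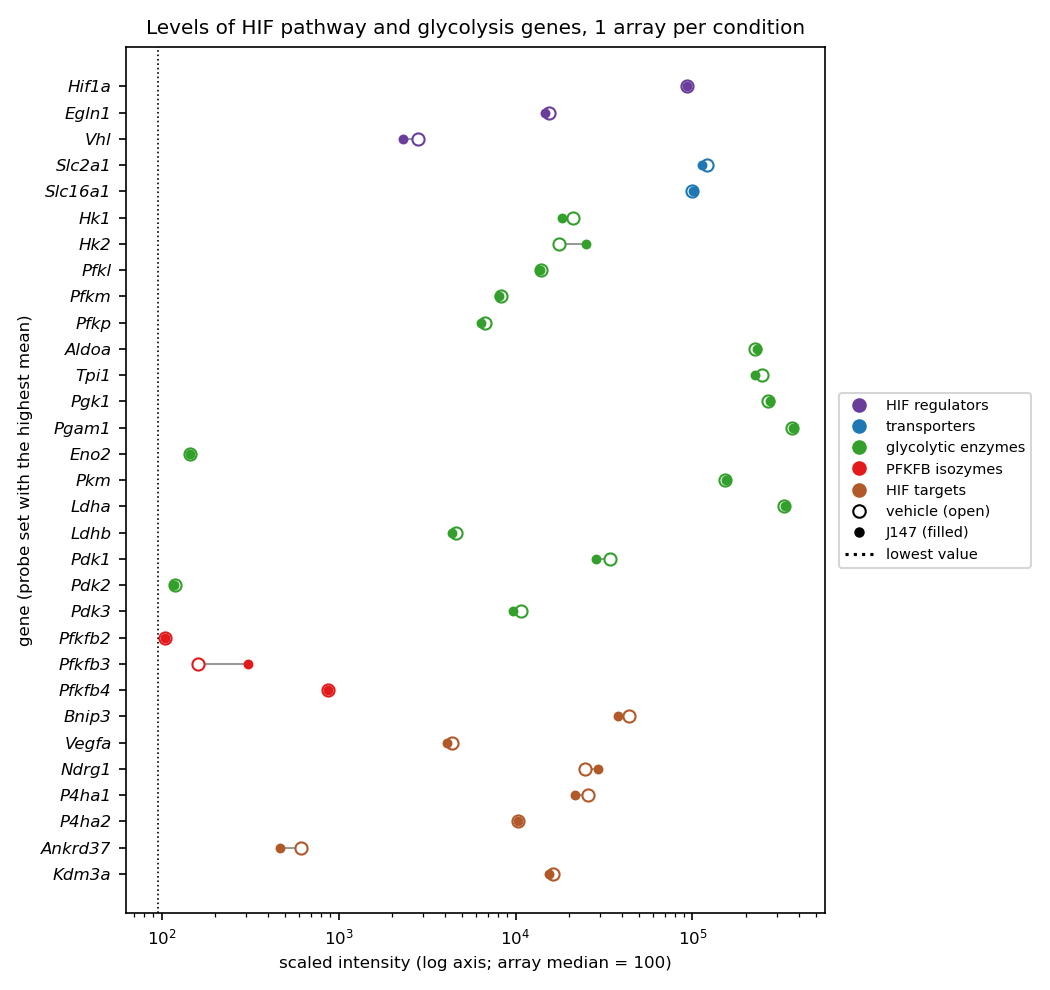
Scaled intensity (horizontal axis, logarithmic, array median 100) of the 31 scored genes (vertical axis, each by its brightest scored probe set) after vehicle (open circles) and after J147 (filled circles). Grey lines join the values of a gene and the dotted line is the lowest value on the vehicle array. Hk2 and Pfkfb3 have the longest lines to the right and Ankrd37 the longest to the left, and levels of different probe sets are not to be compared.

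The PFKFB isozymes make and degrade fructose 2,6-bisphosphate, the strongest activator of phosphofructokinase, and differ in their balance of kinase and phosphatase activity. Pfkfb3, the isozyme with the highest kinase activity and an inducible gene, had the largest difference of all members. Its probe set 1416432_at read 160 for vehicle and 309 for J147, 1.93-fold higher or a log2 difference of 0.95. The other probe set, 1456676_a_at, had identical deposited values, at scaled intensities of 198 and 197. The first is close to the lowest value after vehicle, and the probe sets gave different answers for the gene. Of the 3849 scored probe sets with a mean between 200 and 1000, 23 (0.598%) lay at least as far from 0 as the first. By the mean of both probe sets, the log2 difference of Pfkfb3 was 0.47. With a minimum of 200 on both arrays, no Pfkfb3 probe set was left, and no member was past 1.5-fold higher. Pfkfb4, induced by HIF-1 in many cells, had identical values of 871 and 869 after scaling, and Pfkfb2, the heart isozyme, read 105 and 104, also identical as deposited. A difference among the isozymes has no test here.

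Of the 10 genes grouped as HIF targets, 7 were scored, with a median log2 difference of -0.10, 5 below 0, 1 above 0 and 1 with identical values. Among all scored genes, 48.3% lay below 0 and 37.1% above. Glycolytic enzymes, glucose transporters and PFKFB isozymes were grouped apart, so this group does not hold every gene that HIF-1 can raise. Among those, by the brightest probe set, Hk2 (0.51) and Pfkfb3 (0.95) lay above 0 and Slc2a1 (-0.10) and Pdk1 (-0.25) below. Ankrd37, an ankyrin repeat gene strongly induced by hypoxia, had the lowest difference of any member. It read 615 for vehicle and 468 for J147 on 1436538_at, 1.32-fold lower or a log2 difference of -0.40. Of the scored probe sets between 200 and 1000, 9.85% lay at least as far from 0. P4ha1, a subunit of collagen prolyl hydroxylase, was lower on both probe sets, with 25566 and 21770 on 1452094_at (-0.23) and 1506 and 1387 on 1426519_at (-0.12). P4ha2, its close relative, had identical deposited values, which are 10326 and 10293 after scaling. Bnip3, a mitophagy receptor of the BCL2 family, read 43615 and 38142, a difference of -0.19. The histone demethylase Kdm3a read 16333 and 15457, a difference of -0.08. Vegfa, the angiogenic growth factor, had probe sets on both sides of 0, with 4397 and 4114 on 1420909_at (-0.10) and 1274 and 1343 on 1451959_a_at (0.08).

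Ndrg1, a stress- and hypoxia-induced gene also called N-myc downstream regulated gene, was the only scored gene of the HIF target group above 0. Its brightest probe set, 1456174_x_at, read 24651 for vehicle and 29148 for J147, a log2 difference of 0.24 or 1.18-fold higher. The next 3 read 7905 and 8834 (0.16), 6782 and 7790 (0.20) and 1891 and 2292 (0.28), and the last of these, 1423413_at, was 1.21-fold higher. All 4 were higher with J147, and the fifth had identical values close to the lowest value, at 145. Neither Car9, a carbonic anhydrase regarded as one of the most HIF-dependent genes, in its single probe set, nor Adm, which encodes the vasodilator peptide adrenomedullin, in both of its own, read above the lowest value on either array. In 14 members at least 2 scored probe sets had deposited values that differ. All of these lay above 0 for Hif1a, Pgk1 and Ndrg1, all below 0 for Egln1, Vhl, Slc2a1, Hk1, Pfkl, Ldhb, Pdk1 and P4ha1, and on both sides for Aldoa, Tpi1 and Vegfa. The share with 1 sign was 78.6%, beside 53.4% of 4213 such genes over the array. These shares are not matched for level, and the differences of Pfkl were only -0.02 and -0.008. Probe sets of a gene read the same RNA and may share target sequence, so they check the probe set and not the culture.

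**Figure D3:**
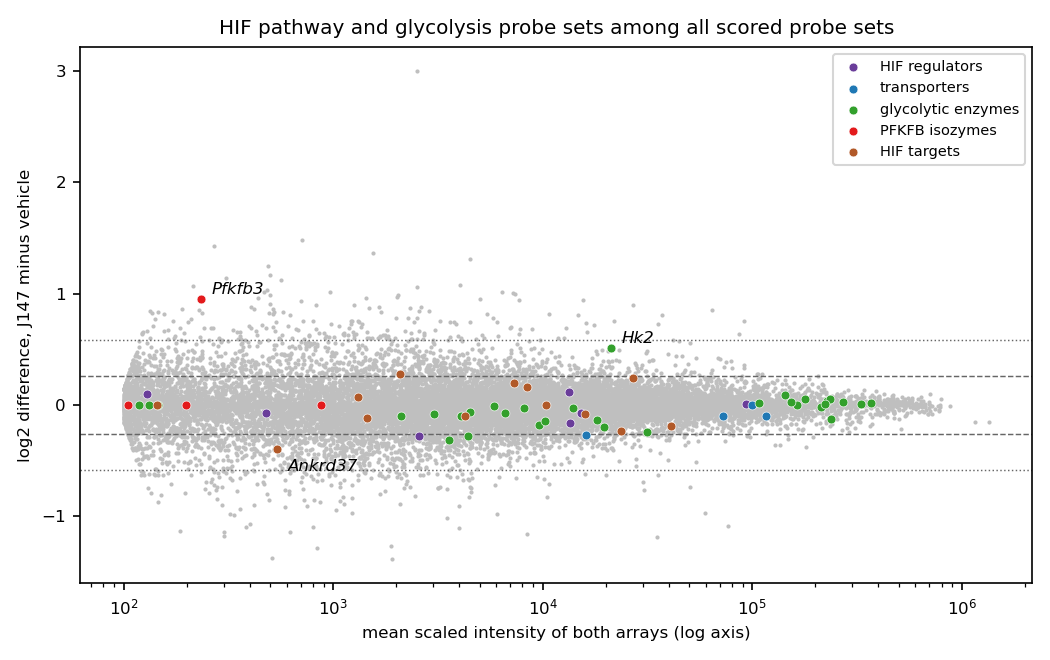
Log2 difference, J147 minus vehicle (vertical axis), against the mean scaled intensity of both arrays (horizontal axis, logarithmic) for the 22545 scored probe sets (grey) and the 60 of the HIF pathway and glycolysis genes (coloured by group). Dashed lines mark 1.2-fold and dotted lines 1.5-fold. Pfkfb3 lies at the low-intensity end and Hk2 at the edge of the grey cloud at its level, while the bright glycolytic enzymes lie close to 0.

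A further list held 56 genes of the same pathways that are not among the 42, with other HIF subunits and regulators, further targets, tissue-specific isozymes and the pyruvate dehydrogenase complex. Of these, 48 had a probe set of their own and 35 were scored. Their median log2 difference was -0.031, with 20 (57.1%) below 0 and 11 (31.4%) above, beside 48.3% and 37.1% of all scored genes. Of the 64 scored probe sets of the list, 1 (1.56%) was past 1.5-fold higher with J147, beside 0.856% of all. A further 4 (6.25%) were past 1.5-fold lower, beside 0.781% of all. The list was chosen with earlier results of these data known, so these shares describe the list and test nothing. Ddit4, an inhibitor of mTORC1 that responds to hypoxia and to several other stresses, read 38268 for vehicle and 22481 for J147, 1.70-fold lower or a log2 difference of -0.77. Ccng2, cyclin G2, which is also a target of FOXO factors, read 2668 and 1111 on 1416488_at, 2.40-fold lower or a log2 difference of -1.26, and 146 and 96.6 on 1448364_at, where the J147 value was close to the lowest value. The fourth probe set was the dimmest of Higd1a, a hypoxia-induced mitochondrial protein, which read 750 and 490, a difference of -0.61. The others of that gene were lower by less, at -0.17 (161206 and 143513) and -0.22. The single probe set past 1.5-fold higher was that of Bhlhe40, a transcriptional repressor of the clock and hypoxia responses, with 9382 and 14201, a log2 difference of 0.60. At 1.2-fold, 4 of the 64 (6.25%) were higher and 7 (10.9%) were lower with J147, beside 5.04% and 6.09% of all scored probe sets. The other probe sets of the list past 1.2-fold, all under 1.5-fold and given here after their values were seen, were on both sides of 0. Higher were 1 of the 3 scored probe sets of Stc2 (0.40, 625 and 826), 1 of 3 of Siah1a (0.40, 3235 and 4259) and 1 of 2 of Cul2 close to the lowest value (0.28, 136 and 165). Lower were both bright probe sets of Lox (-0.31, 162860 and 131687, and -0.32, 60830 and 48732) and 1 of Hif3a close to the lowest value (-0.31, 191 and 154). Stc2 is a secreted glycoprotein, Siah1a and Cul2 belong to ubiquitin ligases, Lox crosslinks collagen and Hif3a is a HIF alpha subunit.

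Some HIF subunits, regulators and pyruvate dehydrogenase genes of that list are named here after their values were seen. Arnt, the partner of Hif1a, had log2 differences of -0.12 and -0.02 on its bright probe sets (8499 and 7833 on the first). Hif1an, the asparagine hydroxylase that limits HIF activity, had probe sets on both sides of 0, at 0.09 (3328 and 3544), -0.20 (276 and 240) and -0.0050 (247 and 246). Pdha1 and Pdhb, subunits of pyruvate dehydrogenase, each had 0.02 on the brightest probe set, and Dlat, the acetyltransferase of the complex, had -0.01. Pdp1, the phosphatase that opposes the PDK kinases, read 2738 and 3260 on 1434228_at (0.25) and 1104 and 1254 on 1438201_at (0.18). Of the scored probe sets at that level, 16.4% and 26.1% lay at least as far from 0. Pdk4, a further kinase, was at the lowest value in its probe set.

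**Figure D4:**
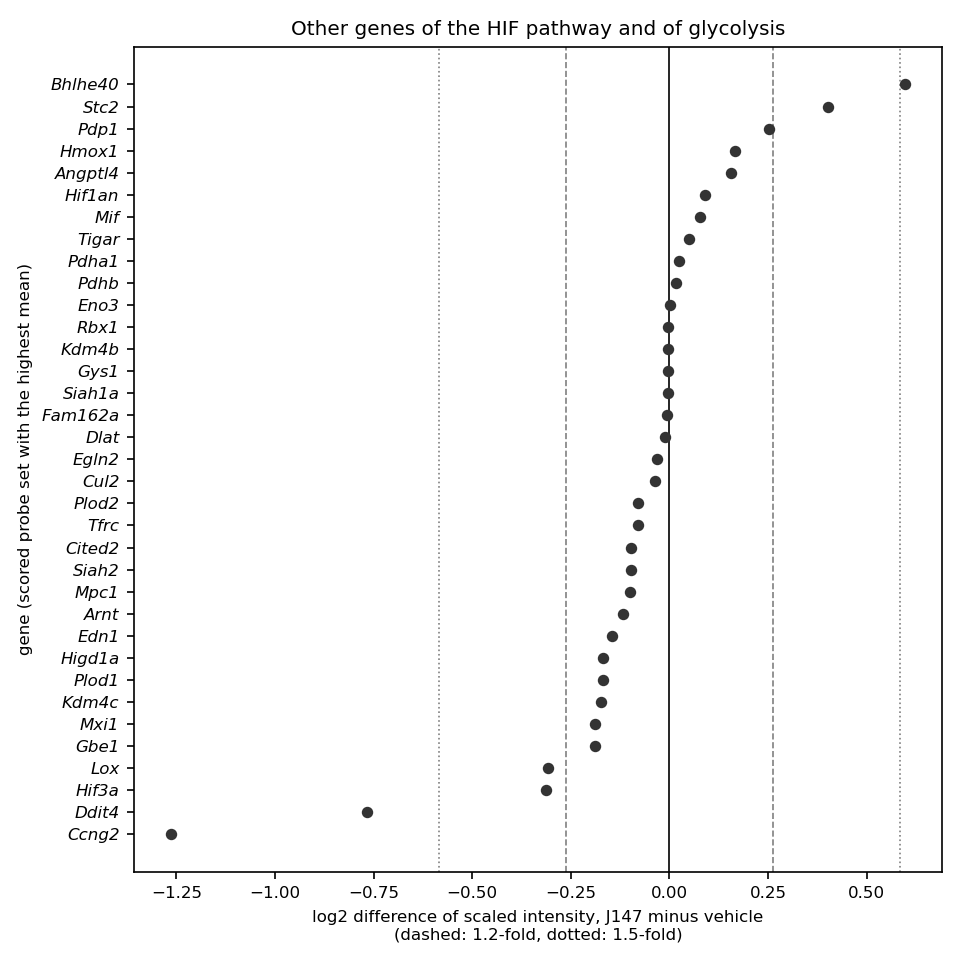
Log2 difference of scaled intensity, J147 minus vehicle (horizontal axis), of the 35 scored genes of the further list (vertical axis, each by its brightest scored probe set, 1 array per condition). Ccng2 and Ddit4 lie past the 1.5-fold line on the left and Bhlhe40 past it on the right.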

How the data were processed

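RNA from 1 sample of HT22 cells per condition was labelled and hybridized to Affymetrix Mouse Genome 430 2.0 arrays. The authors summarised the scans by gcRMA in R, and the deposited values are log2 intensities per probe set. Affymetrix Expression Console 1.0 is also among the submitters' processing notes, and for gcRMA no version is given in the sources used here. After the methods, each array was scaled to a median of 100 over 45037 probe sets (controls left out), and the 22545 with a mean above 100 were scored. Genes came from the platform annotation, with symbols updated through Entrez numbers to RefSeq on GRCm38.p6: 34945 probe sets had 1 gene, 932 several and 9160 none. A gene was read from its scored probe set with the highest mean. Called means past the stated fold, with no test. All scored members are named, and of the further list those past 1.5-fold. Other genes of the further list were named after their values were seen. The members and lists were chosen with earlier results of these data known. Alternatives were no scaling, quantile normalization, subtraction of a lowess curve (span 0.3), a pseudocount of 50, other filters, other probe sets and the mean per gene. The number of arrays limits the precision. Python 3.11.15, numpy 2.4.6, pandas 2.3.3, statsmodels 0.14.6 and matplotlib 3.10.9 were used, and the steps were tested on simulated data.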

Additional observations from a re-analysis of the deposited data

How the results depend on the processing

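Of 390 values recomputed under 9 alternatives, 382 stayed close to the reported one. Close means within 1.5 times for counts and within the SD of probe sets at the same level for genes. For medians it means within the standard error over genes. For many genes the limit is wider than the difference itself, so Vegfa, which ranged from -0.10 to -0.01, counted as close. Of the 31 members and Ddit4, Ccng2 and Bhlhe40, the genes recomputed, none that was at least 1.2-fold different changed sign. The count of member probe sets at least 1.2-fold lower was 5, and it was 3 after quantile normalization and 2 with the lowess curve, and the cause was not tested. The count at least 1.5-fold higher was 1, and it was 0 with a minimum of 200 on both arrays, which leaves out Pfkfb3 by construction. The median of the transporters, -0.047, became -0.13 without probe sets ending in _x_at, _s_at and _a_at, since Slc2a1 was then read from its dimmest probe set. Hk2 stayed at 0.51, Ankrd37 ranged from -0.40 to -0.36, Pdk1 from -0.25 to -0.18 and Ndrg1 from 0.18 to 0.25 (log2). The values that moved for single genes were those of Slc2a1 (-0.27, without these probe sets), Hk1 (-0.06, with probe sets of several genes added), Pfkfb3 (0.47) and Ccng2 (-0.93, both by the mean of the probe sets). With 1 array per condition no replicate could be left out, and the lowest value hides any change in the 19 member probe sets at it.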
